A study of Mus musculus with 6 samples.

Results

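The genes described are 9 that move glucose across kidney tubule cells or make and use it there. They were picked by name for these roles, and all 9 were found among the 17684 genes of the expression table: the sodium-glucose cotransporters Slc5a2 and Slc5a1, the facilitative transporters Slc2a2 and Slc2a1, the gluconeogenic enzymes Pck1, Pcx, Fbp1 and G6pc, and the fructose kinase Khk. All 9 passed the filter on low counts. Kidney RNA was sequenced in 3 mice of the Db group and 3 mice of the Db + Ato10 group, with 1 library per mouse. The aim was to compare kidneys of diabetic mice with and without long-term atorvastatin, an inhibitor of cholesterol synthesis. All 6 mice were db/db, which lack a working leptin receptor and become obese and diabetic, of the strain labelled C57 BLKS/L and 50 weeks old. The Db group received normal saline and the Db + Ato10 group atorvastatin at 10 mg/kg of body weight, both over 40 weeks. The methods describe gavage on a run of consecutive days per week, with days without drug in between. One field of the sample records gives atorvastatin for all 6 mice, and the groups follow another field, which separates saline from atorvastatin. Mice had to survive to 50 weeks of age to be sampled, and nondiabetic mice were not analysed here.

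In the healthy kidney, filtered glucose is taken up almost entirely in the proximal tubule. Slc5a2 carries most of it across the brush border in the early segments, Slc5a1 takes up the remainder further down, and Slc2a2 and Slc2a1 let it out towards the blood. Proximal tubule cells also make glucose from lactate, glutamine and glycerol and break down fructose through Khk, and diabetes is known to affect both glucose uptake and glucose production in this segment.

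The deposited counts summed to between 11381678 and 13134930 per library in the Db group and to between 13133241 and 14667909 in the Db + Ato10 group. Values are given as CPM (counts scaled to the TMM-normalized library size), and 3 counts correspond to between 0.198 and 0.260 CPM, a limit that covers counting error only. A gene was called at an adjusted p under 0.05 (edgeR's quasi-likelihood F test, with Benjamini-Hochberg adjustment over the 13679 tested genes) together with a fitted difference of over 1.5-fold. SE is the standard error of a log2 fold change. With 3 mice against 3, an exact permutation test of a single value cannot give a p below 0.1.

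Some libraries stood apart before any gene was compared. Counts of 4 Y-linked genes summed to 2 in Db replicate 1 and to between 1419 and 2116 in the other 5 libraries, although the methods enrolled males only. Fold changes of the members and of genes named from the pathway lists, and medians of the gene and marker lists, are therefore also given without Db replicate 1. They are not given for the genes named for a similar pattern. A left-out range is the lowest and highest value over the 6 edgeR fits that each leave out 1 library. On the first principal component, which held 71.1% of the variance, Db + Ato10 replicate 1 lay at 107 and Db + Ato10 replicate 2 at 46.1. Db + Ato10 replicate 3 lay at -18.8, beside the Db libraries at -55.4, -26.9 and -52.0.

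No member was called between the groups. The count was 0 of 9 members, beside 0% of all tested genes, and with edgeR on all libraries 0 of 9 members had an unadjusted p under 0.05, beside 16.9% of all genes. Slc5a2 alone was under that threshold, and lower, with DESeq2 (19.2% of all genes), the replicate block (13.6%) and limma on log2(FPKM + 1) (14%), log2(FPKM + 0.1) (14.8%) and log2(TPM + 1) (15.9%). With edgeR and Db + Ato10 replicate 3 left out, 3 of 9 members were, Slc5a2, Khk and Pcx, all lower, beside 29.9% of all genes, 13.1% lower. DESeq2 without that library, an alternative chosen after seeing the data, had 6 of 9 members under the threshold, 5 lower and 1 higher (Slc2a1). That fit called 19.3% of all genes, and its share of all genes at an unadjusted p is not given here. With all libraries, DESeq2 called 0 of 9 members and 6.46% of all genes, 5.17% higher and 1.29% lower. By direction, 7 of 9 members had a lower fitted mean in the Db + Ato10 group, beside 50.6% of all genes, and with limma-voom, the replicate block and limma on FPKM or TPM the count was 8 of 9. The median log2 fold change was -0.55 over the members and -0.0063 over all tested genes, and the member median was -0.54 without Db replicate 1, -0.23 when Db + Ato10 replicate 1 was left out and -1.06 when Db + Ato10 replicate 3 was. Slc5a2 and Slc2a2 were the 2 members whose groups did not overlap, both lower in the Db + Ato10 group, where 11.3% of all genes were lower without overlap. Members higher without overlap numbered 0, beside 12% of all genes.

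The members were not evenly low across the Db + Ato10 mice. Relative to the Db mean, the median log2 value over the 9 members was -2.26 in Db + Ato10 replicate 1, -0.46 in replicate 2 and -0.11 in replicate 3. In Db + Ato10 replicate 1, 8 of 9 members lay below every Db library, where 40.9% of all tested genes did. The counts were 5 of 9 in replicate 2 (34.2% of all genes) and 4 of 9 in replicate 3 (24% of all genes). Members above every Db library numbered 1, 1 and 2 in Db + Ato10 replicates 1 to 3, beside 38.6%, 35.1% and 23.5% of all genes.

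**Figure D1:**
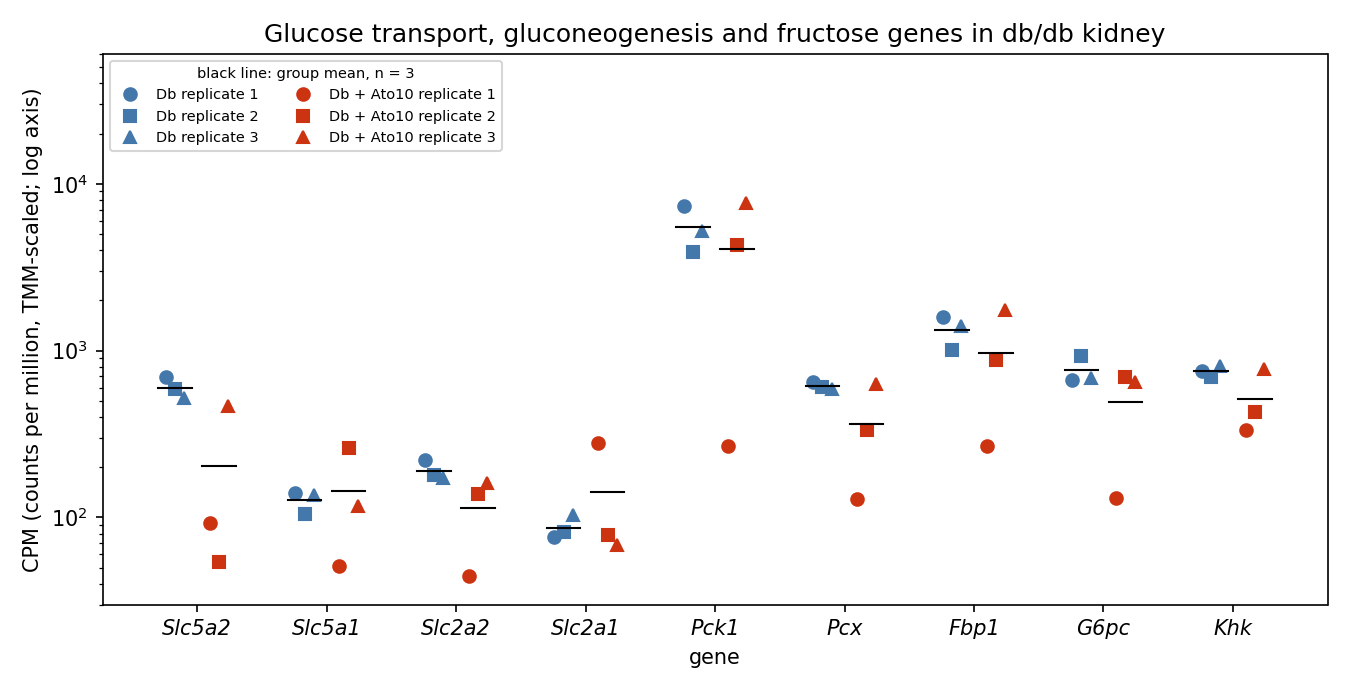
CPM of the 9 genes in each library on a log axis, with Db libraries in blue, Db + Ato10 libraries in red, a marker shape for each replicate number and a black line at each group mean (n = 3). Db + Ato10 replicate 1 (red circles) is the lowest library for 7 genes other than Slc5a2 and Slc2a1, Db + Ato10 replicate 2 is the lowest for Slc5a2 at 53.7 CPM, and Slc2a1 is highest in Db + Ato10 replicate 1 at 280 CPM.

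Slc5a2 (NCBI Gene 246787) encodes the high-capacity sodium-glucose cotransporter of the early proximal tubule. It had 693, 586 and 518 CPM in Db replicates 1 to 3 and 92.5, 53.7 and 466 CPM in Db + Ato10 replicates 1 to 3. All 3 Db + Ato10 libraries lay below every Db library, but the third was close to the lowest Db library while the other two were far below. As shares of the Db mean these were 15.4%, 8.96% and 77.9%. The Db mean was 599 ± 88.0 CPM (SD, n = 3) and the Db + Ato10 mean 204 ± 228 CPM (SD, n = 3), and their difference exceeded the larger SD. The log2 fold change was -1.55 (SE 0.78, 95% confidence interval -3.42 to 0.32), a fitted mean 2.93-fold lower, and it did not pass the edgeR quasi-likelihood F test (Benjamini-Hochberg adjusted p = 0.349). With all libraries it was -2.13 with limma-voom and -2.24 with the replicate block or on TPM. When Db replicate 1 was left out, edgeR gave -1.42, and -1.09 when Db + Ato10 replicate 2 was. When Db + Ato10 replicate 3 was left out, it was -3.03, and Slc5a2 was then the 1 member called (edgeR quasi-likelihood F test, Benjamini-Hochberg adjusted p = 0.0233), beside 8.18% of all genes called in that fit, 5.96% higher and 2.23% lower. With any other library left out, 0 of 9 members were called, and the edgeR adjusted p of Slc5a2 (Benjamini-Hochberg) lay between 0.469 and 0.612. The estimated counts of Slc5a2 were not whole numbers, which can occur where a read matches more than 1 gene or transcript, and the number of such reads is not known. In bulk kidney, fewer proximal tubule cells and less of the RNA per cell cannot be told apart.

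Slc5a1 (NCBI Gene 20537) encodes the high-affinity sodium-glucose cotransporter of the later proximal tubule and the intestine. It had 140, 105 and 136 CPM in the Db libraries and 50.9, 262 and 117 CPM in Db + Ato10 replicates 1 to 3. The groups overlapped, with the lowest library (replicate 1) and the highest library (replicate 2) both in the Db + Ato10 group. Relative to the Db mean these values were 40.0%, 206% and 92.0%. Its log2 fold change was 0.17 (SE 0.54, edgeR quasi-likelihood F test, Benjamini-Hochberg adjusted p = 0.874), 0.26 without Db replicate 1, and -0.59 when Db + Ato10 replicate 2 was left out. Its sign was also negative with limma-voom, the replicate block and limma on FPKM or TPM, so no direction can be given for Slc5a1.

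The balance between the cotransporters differed most in Db + Ato10 replicate 2. In TPM, which corrects for transcript length and allows levels of different genes to be compared, the ratio of Slc5a2 to Slc5a1 was 8.87, 9.99 and 6.83 in Db replicates 1 to 3. It was 3.26, 0.368 and 7.15 in Db + Ato10 replicates 1 to 3. Slc5a1 thus exceeded Slc5a2 in 1 library of 6, at 115 against 42.4 TPM in Db + Ato10 replicate 2. Db + Ato10 replicate 3 lay within the Db range. The ratios were not tested.

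Slc2a2 (NCBI Gene 20526) encodes the low-affinity transporter of the basolateral membrane of the early proximal tubule, also found in liver and pancreatic islets. It had 220, 179 and 172 CPM in the Db libraries and 44.7, 138 and 160 CPM in Db + Ato10 replicates 1 to 3. Each Db + Ato10 library lay below every Db library, and only replicate 1 was far below. The group means were 190 ± 26.2 CPM (SD, n = 3) and 114 ± 61.2 CPM (SD, n = 3), a difference larger than the larger SD. Fitted over all libraries, the log2 fold change was -0.74 (SE 0.44, edgeR quasi-likelihood F test, Benjamini-Hochberg adjusted p = 0.411), a fitted mean 1.67-fold lower, and -0.61 without Db replicate 1. When Db + Ato10 replicate 1 was left out it was -0.35, and -1.06 when replicate 3 was.

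Slc2a1 (NCBI Gene 20525) encodes a high-affinity transporter that many cell types carry, including endothelium and later tubule segments. It had 76.3, 81.2 and 103 CPM in the Db libraries and 280, 78.6 and 68.1 CPM in Db + Ato10 replicates 1 to 3. Replicate 1 alone was high, at 323% of the Db mean, and replicate 3 was the lowest of all 6 libraries. Over all libraries the log2 fold change was 0.71 (SE 0.55, edgeR quasi-likelihood F test, Benjamini-Hochberg adjusted p = 0.498) and 0.64 without Db replicate 1, and with all libraries limma-voom gave 0.39. When Db + Ato10 replicate 1 was left out it was -0.23, so its sign rested on that library. The TPM ratio of Slc2a2 to Slc2a1 was 2.89, 2.21 and 1.67 in the Db libraries and 0.159, 1.75 and 2.35 in Db + Ato10 replicates 1 to 3. Slc2a1 exceeded Slc2a2 in Db + Ato10 replicate 1 and in no other library.

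Pck1 (NCBI Gene 18534) encodes the cytosolic phosphoenolpyruvate carboxykinase, which controls entry into gluconeogenesis. It had 7401, 3875 and 5232 CPM in Db replicates 1 to 3 and 268, 4278 and 7682 CPM in Db + Ato10 replicates 1 to 3. Db + Ato10 replicate 1 had 4.88% of the Db mean, while replicate 2 lay within the Db range and replicate 3 was the highest of all 6 libraries. Among all tested genes, 10.7% had under 50% of their Db mean in Db + Ato10 replicate 1, a much looser cut than the Pck1 value. The share of genes as low as Pck1 was not counted. The log2 fold change was -0.43 (SE 1.00, 95% confidence interval -2.84 to 1.97, edgeR quasi-likelihood F test, Benjamini-Hochberg adjusted p = 0.828). With all libraries it was -1.32 with limma-voom, -0.99 with the replicate block, -1.34 on FPKM and -1.45 on TPM, so its size rested on the method. With edgeR it was -0.15 without Db replicate 1 and -1.27 when Db + Ato10 replicate 3 was left out. With Db + Ato10 replicate 1 left out it was 0.13, so the direction of Pck1 turned with that library.

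Pcx (NCBI Gene 18563) encodes pyruvate carboxylase, the mitochondrial enzyme that makes oxaloacetate from pyruvate. It had 652, 602 and 592 CPM in the Db libraries and 128, 334 and 631 CPM in Db + Ato10 replicates 1 to 3. The Db libraries were close together, Db + Ato10 replicates 1 and 2 lay below them, and replicate 3 lay among them. For Pcx the log2 fold change was -0.76 (SE 0.52, edgeR quasi-likelihood F test, Benjamini-Hochberg adjusted p = 0.461) and -0.70 without Db replicate 1. It was -0.34 when Db + Ato10 replicate 1 was left out and -1.41 when replicate 3 was.

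Fbp1 (NCBI Gene 14121) encodes fructose-bisphosphatase, a gluconeogenic step that opposes glycolysis. It had 1599, 1003 and 1403 CPM in the Db libraries and 268, 881 and 1749 CPM in Db + Ato10 replicates 1 to 3. As for Pck1, Db + Ato10 replicate 1 was the lowest library and replicate 3 the highest, so the groups overlapped. For Fbp1 the log2 fold change was -0.47 (SE 0.63, edgeR quasi-likelihood F test, Benjamini-Hochberg adjusted p = 0.696), -0.31 without Db replicate 1 and -0.016 when Db + Ato10 replicate 1 was left out. It was -1.21 when replicate 3 was left out, and with all libraries limma-voom gave -0.78.

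G6pc (NCBI Gene 14377) encodes the catalytic subunit of the phosphatase that frees glucose in the last step. It had 666, 929 and 688 CPM in the Db libraries and 130, 691 and 651 CPM in Db + Ato10 replicates 1 to 3. Only Db + Ato10 replicate 1 lay far from the Db libraries, at 17.1% of the Db mean. For G6pc the log2 fold change was -0.63 (SE 0.59, edgeR quasi-likelihood F test, Benjamini-Hochberg adjusted p = 0.564), -0.71 without Db replicate 1 and -0.17 when Db + Ato10 replicate 1 was left out. The values were -0.95 and -0.89 when replicates 2 and 3 were, and with all libraries on TPM it was -1.04. The TPM ratio of Pck1 to G6pc was 9.49, 3.57 and 6.49 in the Db libraries and 1.77, 5.29 and 10.1 in Db + Ato10 replicates 1 to 3.

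Khk (NCBI Gene 16548) encodes ketohexokinase, which phosphorylates fructose. It had 755, 694 and 806 CPM in the Db libraries and 334, 430 and 775 CPM in Db + Ato10 replicates 1 to 3. Replicates 1 and 2 lay below every Db library and replicate 3 among them, so the groups overlapped. The group means were 752 ± 56.2 CPM (SD, n = 3) and 513 ± 232 CPM (SD, n = 3), with a difference just above the larger SD. For Khk the log2 fold change was -0.55 (SE 0.33, edgeR quasi-likelihood F test, Benjamini-Hochberg adjusted p = 0.414) and -0.54 without Db replicate 1. It was -0.31 when Db + Ato10 replicate 1 was left out and -0.97 when replicate 3 was. DESeq2 without Db + Ato10 replicate 3, an alternative chosen after earlier results were known, called 3 members, Khk, Pcx and Slc5a2, all lower. That fit called 19.3% of all genes, 11.8% higher and 7.5% lower.

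The order of the levels in TPM also differed between mice. In the Db group the mean levels were 3738 TPM for Pck1, 1688 for Fbp1, 963 for Khk, 605 for G6pc, 476 for Slc5a2, 259 for Pcx, 132 for Slc2a2, 60.1 for Slc2a1 and 56.3 for Slc5a1. In this order the ranges over Db libraries overlapped between G6pc and Slc5a2 and between Slc2a1 and Slc5a1, and not between the other neighbours. Db + Ato10 replicate 3 had the same order apart from Slc5a1 (48.8 TPM) above Slc2a1 (44.4 TPM). In Db + Ato10 replicate 1, Khk was highest at 384 TPM, followed by Fbp1 at 302, Slc2a1 at 173 and Pck1 at 163 TPM. In Db + Ato10 replicate 2, Pck1 was again first at 2891 TPM, and Slc5a2 was last.

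Markers of the proximal tubule were low in the same libraries. All 15 markers of the list were tested, and all 15 were lower in the Db + Ato10 group. Their median log2 fold change was -0.76 (-0.66 without Db replicate 1). Of them 0 had an unadjusted p under 0.05, beside 5.71% of all genes lower. Lower without overlap was 1 (Miox, named after its values were seen), beside 11.3% of all genes. When Db + Ato10 replicate 1 was left out, 12 of 15 were lower with a median of -0.26. When Db + Ato10 replicate 3 was, 15 of 15 were lower with a median of -1.29, 7 of them with an unadjusted p under 0.05 (13.1% of all genes). Without Db replicate 3, 13 of 15 were lower and 1 was higher with an unadjusted p under 0.05, beside 710 of 13586 genes higher. Their summed level was 22219, 16109 and 21543 CPM in Db replicates 1 to 3 and 3089, 11889 and 20499 CPM in Db + Ato10 replicates 1 to 3. The phosphate transporter Slc34a1, the highest of the 15 in 4 of 6 libraries, had 4266, 3110 and 3887 CPM in the Db libraries and 354, 1877 and 4227 CPM in the Db + Ato10 libraries. As for most members, the summed level of the markers was lowest in replicate 1, and it lay within the Db range in replicate 3. In replicate 3, 4 of 9 members lay below every Db library and 2 above. The part of the markers in the members' values was not tested. Each of the 15 markers was detected in every library, as kidney tissue requires.

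Members were also set against the mean log2 CPM of these 15 markers in the same library. As a difference of mean log2 values, 7 of 9 members were then higher in the Db + Ato10 group, from 0.0050 for Pcx to 1.45 for Slc2a1. The exceptions were Slc5a2 and Pck1. The marker mean itself differed by -1.04 between the groups (-2.57, -0.74 and 0.20 in Db + Ato10 replicates 1 to 3). Subtracting it raises every gene by the same amount. The count of 7 thus says only that these members fell less than the markers or rose, and the share over all genes was not computed. Slc5a2 was at the Db level in Db + Ato10 replicate 1 (-0.11) and low in replicate 2 (-2.72), with -0.55 in replicate 3, on a log2 scale where the Db mean is 0. Slc5a1 was at 1.26, 1.80 and -0.30, and Slc2a1 at 4.27, 0.61 and -0.53. Pck1 was at -1.74 in replicate 1, below the markers, and at 0.43 and 0.34 in the other Db + Ato10 libraries. Slc2a2, Pcx, Fbp1 and G6pc stayed between -0.44 and 0.62 in all 3 Db + Ato10 libraries. Khk stood 1.40 above the markers in replicate 1. In the Db libraries the members lay between -0.47 and 0.71 on this scale, and outside that range were Slc5a1, Slc2a1, Khk and Pck1 in Db + Ato10 replicate 1, Slc5a1 and Slc5a2 in replicate 2, and, closer to it, Slc5a2 (-0.55) and Slc2a1 (-0.53) in replicate 3. These differences were not tested.

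**Figure D2:**
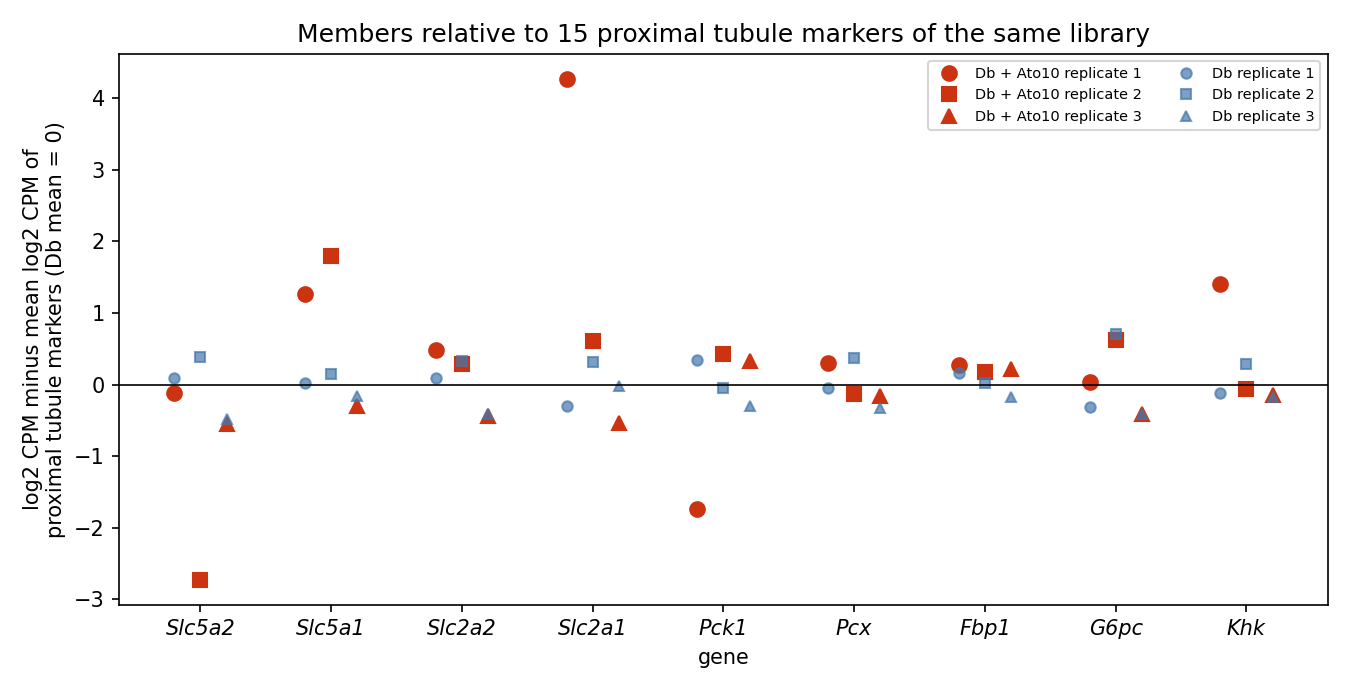
Log2 CPM of each gene minus the mean log2 CPM of 15 proximal tubule markers in the same library, with the mean of the Db libraries set to 0 for each gene; blue symbols are Db libraries, red symbols are Db + Ato10 libraries and shapes mark the replicate number. Slc2a1 in Db + Ato10 replicate 1 is highest at 4.27, and Slc5a2 in Db + Ato10 replicate 2 is lowest at -2.72.

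Markers of other cell types moved between the same libraries, and their part in the members' values was not tested. Of 8 immune markers 5 were tested, all 5 higher with an unadjusted p under 0.05, beside 11.2% of all genes. Without Db replicate 1 the count was 2 of 5, beside 5.16% of all genes. Their median log2 fold change was 3.15 (2.97 without Db replicate 1, left-out range 1.59 to 3.66). They summed to 83.4, 117 and 95.6 CPM in the Db libraries and 1163, 366 and 130 CPM in Db + Ato10 replicates 1 to 3. C1qa had the highest mean CPM, although it was the highest in only 2 of 6 libraries. The 4 tubular injury markers were all higher with an unadjusted p under 0.05, beside 11.2% of all genes. Without Db replicate 1 the count was 3 of 4, beside 5.16% of all genes. The median log2 fold change of the injury markers was 5.10 (4.73 without Db replicate 1, left-out range 4.64 to 6.80, highest without Db replicate 2). They summed to 12.0, 90.5 and 17.1 CPM in the Db libraries and 5454, 1407 and 429 CPM in the Db + Ato10 libraries. Lcn2, the highest of the 4 in 4 of 6 libraries, made up most of the sum in Db + Ato10 replicate 1, at 5088 CPM. On the log2 scale, with the Db mean at 0, the injury markers had medians of 5.68, 6.13 and 4.41 in Db + Ato10 replicates 1 to 3, so the sum was highest in replicate 1 and the median in replicate 2. The 5 fibroblast and matrix markers were all higher, 4 with an unadjusted p under 0.05 (11.2% of all genes), with a median log2 fold change of 2.42. Without Db replicate 1 these were 2 of 5 (5.16% of all genes) and 2.13. When Db + Ato10 replicate 1 was left out, they were 2 of 5 (1035 of 13415 genes) and 0.71 (left-out range 0.71 to 2.89). Their sums were 95.3, 122 and 98.6 CPM in the Db libraries and 1210, 473 and 179 CPM in the Db + Ato10 libraries. Col1a1 had the highest mean CPM of them and was the highest in 2 of 6 libraries. EdgeR called 0 markers of these 3 lists with all libraries and, without Db + Ato10 replicate 3, 4 of 5 immune, 3 of 4 injury and 2 of 5 fibroblast markers, all higher, beside 5.96% of all genes called higher in that fit.

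Markers of other nephron segments had another order across the Db + Ato10 mice, with the lowest values in replicate 2. The 4 markers of the thick ascending limb, led by Umod in 6 of 6 libraries, were all lower. Of them 2 had an unadjusted p under 0.05, beside 5.71% of all genes lower. Their median log2 fold change was -0.97 (-0.99 without Db replicate 1, left-out range -1.20 to -0.69). Relative to the Db mean, their medians were -0.82, -1.76 and -0.91 in Db + Ato10 replicates 1 to 3. The 4 collecting duct markers, led by Aqp2 in 6 of 6 libraries, were also all lower. Their median was -0.56 (-0.53 without Db replicate 1, left-out range -0.71 to -0.39). Of these, 2 had an unadjusted p under 0.05 (5.71% of all genes lower), and 1 without Db replicate 1 (2.52%). Medians were -0.21 for 4 podocyte markers (0.095 without Db replicate 1) and 0.027 for 4 endothelial markers (0.066 without Db replicate 1). With a library left out they ranged from -0.69 to 0.15 and from -0.38 to 0.38, so neither had a direction. The 4 red blood cell markers summed to 707, 628 and 2621 CPM in the Db libraries and 934, 176 and 407 CPM in the Db + Ato10 libraries. Their median log2 fold change was -1.37 (-1.66 without Db replicate 1, left-out range -2.15 to -0.40). With all libraries 0 were lower at an unadjusted p under 0.05 (5.71% of all genes). When Db + Ato10 replicate 1 was left out, all 4 were (632 of 13415 genes). Hba-a1 had the highest mean CPM of them and was the highest in 3 of 6 libraries. Of 4 hepatocyte markers, listed because liver shares Slc2a2 and the gluconeogenic enzymes, 3 were in the table, and they summed to 141, 29.6 and 31.0 CPM in the Db libraries and 6.06, 135 and 27.0 CPM in the Db + Ato10 libraries, with a median log2 fold change of -0.60 (-0.56 without Db replicate 1, left-out range -1.37 to -0.36). When Db + Ato10 replicate 3 was left out, edgeR called 2 of 3 hepatocyte, 2 of 4 thick ascending limb, 1 of 4 collecting duct and 1 of 4 endothelial markers, all lower, beside 2.23% of all genes called lower in that fit, and 0 of each list with all libraries. Ttr was the highest in 2 of 6 libraries, Db replicate 1 and Db + Ato10 replicate 2.

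Further genes of glucose handling were counted from 5 lists with 83 entries, of which 82 were in the table and 79 were tested. With edgeR, 0 of 79 were called, and 14 had an unadjusted p under 0.05, 5 higher and 9 lower, where 11.2% of all genes were higher and 5.71% lower by that threshold. Without Db replicate 1 these counts were 2 higher and 7 lower, beside 5.16% of all genes higher and 2.52% lower. When Db + Ato10 replicate 3 was left out they were 9 higher and 22 lower of 78. In that fit 29.9% of all genes were under the threshold, 2269 of 13517 higher and 1769 (13.1%) lower. DESeq2 called 9 of 79, 4 higher and 5 lower, beside 6.46% of all genes, 5.17% higher and 1.29% lower. DESeq2 with a library left out, chosen after seeing the data, called from 3 genes to 23. Without Db replicate 1 it called 3 higher and 0 lower, beside 1.44% of all genes, 1.18% higher and 0.258% lower. Without Db + Ato10 replicate 3 it called 6 higher and 17 lower, beside 19.3% of all genes, 11.8% higher and 7.5% lower. EdgeR without Db + Ato10 replicate 3 called 3 higher and 7 lower, beside 5.96% and 2.23% of all genes, among them Slc2a6, Slc2a12, Hk2, Pfkm, Irs1 and Ppargc1a, and it called 0 of these lists with any other library left out. The median log2 fold change over the 79 genes was -0.18 (-0.11 without Db replicate 1, left-out range -0.34 to -0.11).

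Among 13 other glucose and fructose transporters, 10 were lower and 3 higher, with a median log2 fold change of -0.30 (-0.42 without Db replicate 1, left-out range -0.50 to -0.15). Slc2a6, a transporter of lysosomes in macrophages, had 0.397, 0.867 and 0.242 CPM in the Db libraries and 29.7, 9.66 and 1.58 CPM in Db + Ato10 replicates 1 to 3. The groups did not overlap, with Db values close to the limit that 3 counts set. Its Db counts were 5, 10 and 3, so it passed the filter only through the Db + Ato10 group. DESeq2 called Slc2a6 higher while the edgeR quasi-likelihood F test did not (Benjamini-Hochberg adjusted p = 0.239). Its log2 fold change was 4.75 (4.63 without Db replicate 1, left-out range 3.49 to 5.38), lowest without Db + Ato10 replicate 1. Slc2a12, a facilitative glucose transporter, had 16.4, 12.7 and 14.9 CPM in the Db libraries and 3.23, 2.84 and 8.11 CPM in the Db + Ato10 libraries, lower without overlap. The log2 fold change of Slc2a12 was -1.64 (SE 0.43, edgeR quasi-likelihood F test, Benjamini-Hochberg adjusted p = 0.239) and -1.54 without Db replicate 1 (left-out range -2.27 to -1.37). DESeq2 called it with all libraries and, of the fits with 1 library left out, only without Db + Ato10 replicate 3. Pdzk1ip1, a small membrane protein that partners Slc5a2 and has the highest mean TPM of the list, had 640, 731 and 548 CPM in the Db libraries and 396, 452 and 576 CPM in the Db + Ato10 libraries. Its groups overlapped, with a log2 fold change of -0.43 (-0.42 without Db replicate 1, left-out range -0.59 to -0.31), and in Db + Ato10 replicate 2, where Slc5a2 had 8.96% of its Db mean, Pdzk1ip1 was nearer to its Db level.

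Of 19 other genes of gluconeogenesis and its substrates, 13 were lower and 6 higher, with a median of -0.36 (-0.30 without Db replicate 1, left-out range -0.51 to -0.21). Without Db replicate 1, 0 were lower at an unadjusted p under 0.05 (2.52% of all genes). When Db + Ato10 replicate 3 was left out, 7 were (13.1% of all genes). With all libraries 2 were lower at that threshold, beside 5.71% of all genes. These were the mitochondrial aspartate-glutamate carrier Slc25a12, with 128, 120 and 129 CPM in the Db libraries and 84.4, 66.0 and 110 CPM in the Db + Ato10 libraries, and the aspartate aminotransferase Got1. The log2 fold change was -0.54 for Slc25a12 (-0.51 without Db replicate 1, left-out range -0.74 to -0.36) and -0.44 for Got1 (-0.30 without Db replicate 1, left-out range -0.54 to -0.30). In each of these genes, every Db + Ato10 library lay below every Db library.

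The 7 genes of the fructose and polyol pathway included 5 lower and 2 higher, with a median of -0.45 (-0.43 without Db replicate 1, left-out range -0.57 to -0.24). Of these, 0 had an unadjusted p under 0.05, beside 16.9% of all genes. When Db + Ato10 replicate 3 was left out, 3 were lower at that threshold, beside 13.1% of all genes lower. Glyctk, a glycerate kinase, had 192, 138 and 213 CPM in the Db libraries and 47.8, 106 and 135 CPM in the Db + Ato10 libraries, lower without overlap, with a log2 fold change of -0.91 (-0.86 without Db replicate 1, left-out range -1.23 to -0.58). Tkfc, which phosphorylates the glyceraldehyde made from fructose, had a log2 fold change of -0.55 (-0.45 without Db replicate 1, left-out range -0.84 to -0.24), and Akr1a1, an aldehyde reductase with the highest mean TPM of the list, -0.29 (-0.25 without Db replicate 1, left-out range -0.57 to -0.027). Both had overlapping groups.

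Glycolysis was the list with most genes on the higher side, 13 of 19 tested, with a median of 0.18 (0.26 without Db replicate 1) that was -0.0086 without Db + Ato10 replicate 1. Hk2, a hexokinase that is low in healthy proximal tubules, had 0.556, 0.867 and 0.889 CPM in the Db libraries, which rest on only 7, 10 and 11 counts. In Db + Ato10 replicates 1 to 3 it had 48.1, 9.05 and 1.81 CPM, higher without overlap. Hk2 and Slc2a6 were not tested in the setting that needs 10 counts in every library. Its log2 fold change was 4.66 (4.49 without Db replicate 1, left-out range 2.82 to 5.21). Pfkm, a phosphofructokinase subunit, had 78.8, 75.9 and 80.1 CPM in the Db libraries and 37.0, 25.5 and 49.5 CPM in the Db + Ato10 libraries. Its groups were separate in the opposite direction to Hk2, with a log2 fold change of -1.07 (SE 0.24, edgeR quasi-likelihood F test, Benjamini-Hochberg adjusted p = 0.239) and -1.05 without Db replicate 1 (left-out range -1.32 to -0.84). DESeq2 called both genes, but did not call Pfkm when any Db library was left out. The edgeR quasi-likelihood F test called neither (Benjamini-Hochberg adjusted p = 0.239 for Hk2). Gapdh, with the highest mean TPM of the list, had a log2 fold change of 0.11 (0.18 without Db replicate 1, left-out range 0.028 to 0.21) with overlapping groups.

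Among 21 regulators, 16 were lower and 5 higher, with a median of -0.18 (-0.066 without Db replicate 1, left-out range -0.27 to -0.066). Irs1, an adaptor of the insulin receptor, had 36.9, 26.6 and 26.8 CPM in the Db libraries and 10.9, 10.5 and 19.7 CPM in the Db + Ato10 libraries. Ppargc1a, a coactivator of gluconeogenic and mitochondrial genes, had 150, 118 and 101 CPM in the Db libraries and 38.7, 56.0 and 81.8 CPM in the Db + Ato10 libraries. Both were lower without overlap, with log2 fold changes of -1.14 and -1.06 (-0.95 and -0.89 without Db replicate 1) and left-out ranges of -1.49 to -0.95 and -1.37 to -0.83. With all libraries DESeq2 called both and edgeR neither, and with 1 library left out DESeq2 called them only without Db + Ato10 replicate 3. Txnip, a glucose-responsive gene with the highest mean TPM of the regulators, had a log2 fold change of -0.024 (0.043 without Db replicate 1) whose sign changed under 5 other settings with all libraries.

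Genes with the most similar pattern were sought among 10013 others with a mean of at least 10 CPM, by the root mean square difference of centred log2 CPM over the 6 libraries. For Slc5a2 the nearest were Egf (0.310) and Lrrc66 (0.319), against a spread of 1.44 of Slc5a2 itself. Egf, a growth factor made in the thick ascending limb and distal tubule, had 2265, 2326 and 1936 CPM in the Db libraries and 379, 155 and 1028 CPM in the Db + Ato10 libraries, with the lowest value in replicate 2 as for Slc5a2. For Pck1, with a spread of 1.66, the nearest were the bile acid transporter family member Slc10a5 (0.347) and the glycosyltransferase Ugt3a1 (0.378). For Slc2a1, with a spread of 0.69, they were the endosomal trafficking gene Rab11fip1 (0.122) and Fam129b (0.154), both high in Db + Ato10 replicate 1 alone.

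In the transcript table the 9 members had 17 transcripts, all tested, of which 0 were called, beside 0% of the 30175 transcripts tested. DESeq2 also called 0 of 17, beside 2.95% of all transcripts, 1.9% higher and 1.05% lower. Slc5a1, Slc5a2, Slc2a2, Pck1 and G6pc had 1 transcript each. For Khk, transcript NM_008439.4 held 91.9%, 92.6% and 92.7% of the gene's TPM in the Db libraries and 87.5%, 91.8% and 93.3% in the Db + Ato10 libraries. Transcript NM_001310525.1 of Khk held 1.22%, 1.22% and 1.39% in the Db libraries and 7.09%, 3.29% and 1.15% in Db + Ato10 replicates 1 to 3, so its share was highest where Khk was lowest. For Pcx, transcript NM_008797.3 held 41.4%, 48.5% and 24.9% in the Db libraries and 54.4%, 22.3% and 28.2% in the Db + Ato10 libraries, and the ranges of the groups overlapped.

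Of the 9 members, 8 had promoter sequences in the RefSeq table of build GRCm38.p6 (9 windows), and Slc5a2 had no entry. The 250 bases before each gene start were searched on both strands for the letters TGACGT (reverse complement ACGTCA), part of the cyclic AMP response element. They were found for 1 of these members, Pck1, and in 6.47% of all 32851 promoters. The surrounding sequence is shown because Pck1 is the 1 member with the motif, with the motif in capitals, on the plus strand, from chr2:173152962-173153007.
Pck1: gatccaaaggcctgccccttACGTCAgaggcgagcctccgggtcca
The motif began 91 bases before the gene start. A match of letters is a description and does not show binding.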

How the data were processed

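Kidney RNA-Seq libraries of 3 Db mice and 3 Db + Ato10 mice were analysed (1 per mouse), with groups from the sample labels. The authors deposited, for genes and transcripts, expected counts (estimated reads, not normalized and not always whole), FPKM (scaled to length and library size) and TPM (scaled to length and to the same total per library). The submitters' processing notes name HISAT, Bowtie2 2.2.5 and mm9 with no role, and the counting tool is not given in the sources used here. Library totals ran from 11381678 to 14667909 counts, and 0 pairs of libraries were identical. Means that the authors deposited per group were not used.

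Expected counts were rounded to whole numbers. Genes and transcripts that reached 10 counts in 3 or more libraries entered edgeR 4.0.16 in R 4.3.3 (TMM, quasi-likelihood F test, Benjamini-Hochberg adjustment over all tested features). Log2 CPM used a prior count of 2. Each standard error is the absolute log2 fold change over the root of F. Members, lists and alternatives were chosen with earlier results of these data known. Text names follow a rule: all members, the 2 genes with the smallest p and the 1 with the highest TPM of each pathway list, and the 2 genes nearest in pattern to Slc5a2, Pck1 and Slc2a1. Some genes that this rule or the lists include were counted but are not reported here. Alternatives were DESeq2 1.42.0, limma-voom (limma 3.58.1), upper-quartile normalization, other filters and thresholds, limma on log2(FPKM + 1), log2(FPKM + 0.1) and log2(TPM + 1), the replicate number as a block, values relative to proximal tubule markers, and each library left out. DESeq2 with a library left out was added later. List symbols were matched by name or NCBI Gene number, and Slc5a4a, Cyp7a1 and Xist had no match. Coordinates refer to GRCm38.p6, the build of the RefSeq promoter table. Python 3.11.15 with matplotlib 3.10.9 made the figures.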

Additional observations from a re-analysis of the deposited data

How the results depend on the processing

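Members called numbered 0 with edgeR and in each alternative edgeR, DESeq2 or limma setting that kept all 6 libraries, and 0 to 1 with a library left out (1, Slc5a2, without Db + Ato10 replicate 3). With DESeq2 and a library left out, an alternative chosen after seeing the data, they numbered 0 to 3, with 3 without Db + Ato10 replicate 3. Member transcripts called were 0 in each setting run, from 0 to 0 with a library left out. Over all genes edgeR called 0, DESeq2 884, limma on log2(FPKM + 0.1) 1, and an unadjusted p under 0.05 with a fold change over 1.5 gave 1839, and leaving out a library gave 0 to 1106 with edgeR and 195 to 2614 with DESeq2. Genes of the pathway lists called were 0 with edgeR, 9 with DESeq2, 12 at that unadjusted p, and with a library left out 0 to 10 with edgeR and 3 to 23 with DESeq2. DESeq2 called 7 of the 30 named genes (6.46% of all genes) and edgeR without Db + Ato10 replicate 3 called 9 (8.18% of all genes), but many of the 30 were picked for a small p or a pattern close to a member, which in part fixes these counts. The causes were not tested.

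The log2 fold change of Slc5a1 turned to -0.11 with limma-voom, -0.13 with the replicate block, -0.087 with limma on log2(FPKM + 1), -0.20 on log2(TPM + 1) and -0.098 on log2(FPKM + 0.1), and ranged from -0.59 to 0.59 with a library left out. That of Txnip turned to 0.051 with limma-voom, 0.0012 with at least 10 counts in every library, 0.060 with the replicate block, 0.079 on log2(FPKM + 1) and 0.080 on log2(FPKM + 0.1), and ranged from -0.31 to 0.28. Ranges with a library left out also crossed 0 for Slc2a1 (-0.23 to 1.05), Pck1 (-1.27 to 0.13) and Rab11fip1 (-0.33 to 0.88). The other named genes kept their sign in the edgeR, DESeq2 and limma settings. Differences of mean log2 CPM relative to the proximal tubule markers were set beside the edgeR log2 fold changes, without a test. Of these, 14 of 30 lay further from the edgeR value than the spread between replicates, and 13 of 30 had the other sign. Among the members these 13 included Slc2a2 (0.11), Pcx (0.0050), Fbp1 (0.22), G6pc (0.083) and Khk (0.40). The marker mean itself differed by -1.04 between the groups, and subtracting it raises every gene equally. The edgeR value is also another kind of estimate, so neither count describes single genes. The share over all genes was not computed.

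Whether the replicate numbers pair the mice cannot be decided from 3 libraries per group. Deviations of same-numbered libraries correlated at -0.15, 0.061 and 0.21, and 3 of 6 libraries correlated best with their own number. The replicate block called 0 genes and 0 members and changed no other call. With 3 mice per group, 1 library often decided a mean, and genes below 0.260 CPM could not be measured at this depth.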
